A study of Mus musculus with 2 samples.

Results

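The DEAD and DEAH box RNA helicases were described in 2 clones of mouse embryonic stem (ES) cells that overexpress Klf5. Members were genes whose symbol starts with Ddx or Dhx followed by a digit. Ddx4, Ddx3x, Ddx3y, Ddx58 and Dhx58 were left out by the rule. Of 18193 genes read by probe sets with a single symbol, 47 were members, 32 of them Ddx and 15 Dhx genes, read by 103 probe sets. Of the 48 genes of this kind in the RefSeq gene table, Ddx19a was not analysed here.

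Both groups of cells were Klf5 OE clones of the E14 line, clone 2 and clone 1, labelled undifferentiated and grown in ES medium with 15% serum and LIF (leukaemia inhibitory factor, which sustains self-renewal). The sources used here do not give the overexpression construct. Total RNA of each clone went to 1 Affymetrix array, so there are 2 arrays and no test. Wild-type cells were not analysed here, so no value below is an effect of Klf5.

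Helicases of this superfamily use ATP to pry apart short RNA duplexes and to strip proteins from RNA. They are named for the amino acids of the motif that binds and hydrolyses ATP, Asp-Glu-Ala-Asp (DEAD) or Asp-Glu-Ala-His (DEAH). DEAD box enzymes open duplexes locally, while DEAH box enzymes pull on a strand and remodel large particles such as the spliceosome. Together they serve nearly every step in the life of an RNA, from rRNA processing in the nucleolus to splicing, export, translation and decay. ES cells divide fast and make many ribosomes.

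The deposited values are log2 signals per probe set. A gene was represented by its brightest probe set, and differences are clone 2 minus clone 1. The background level of each array was set at the 95th percentile of 81 probe sets, those of 49 genes known from adult tissues only, which gave 6.28 in clone 2 and 6.83 in clone 1. Because probe sets bind with different affinity, a higher signal of 1 gene than of another is not read as more RNA. The identity of the cells was checked with markers: all 10 undifferentiated ES cell markers were above background in both clones, at 10.49 to 14.06 in clone 2 and 10.12 to 14.15 in clone 1. Of 8 markers of fibroblast feeders, 2 passed in both (Thy1 and Pdgfrb), and the collagens Col1a1, Col1a2 and Col3a1 did not pass in either. Of 6 primitive endoderm markers 0 passed in both, of 6 trophectoderm markers 1 (Tfap2c), of 5 measured streak and mesoderm markers 1 (Eomes) and of 6 neurectoderm markers 1 (Nes). In clone 2 alone passed Sox17 (6.81, against 6.31 in clone 1) and Tubb3 (6.79, against 6.35). Both clone 2 signals lay under the clone 1 level of 6.83 and passed only because the level of clone 2 is lower. They are not read as a difference between the clones. In clone 1 alone passed the mesoderm marker Mesp1, at 6.04 in clone 2 and 7.30 in clone 1, at least 2.03-fold lower in clone 2; whether this bears on any helicase was not tested. The brightest probe set of Klf5 itself read 12.25 in clone 2 and 11.61 in clone 1, and the others 7.26 and 4.77 in clone 2 against 6.97 and 4.81 in clone 1.

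Nearly the whole family was detected, and the clones differed little in it. Of the 47 helicases, 44 (93.6%) were above background in both clones, beside 46.3% of all genes. The same 44 passed in each clone taken alone. Dhx37, Ddx23 and Ddx60 passed in neither. Among the 44, mean signals ran from 6.79 for Ddx55 to 12.50 for Ddx39a, with a median of 9.43. None differed 2-fold between the clones, beside 0.438% of the genes that passed in at least 1 clone, and none differed 1.5-fold, beside 4.38%. With 44 genes both counts are near the share over all genes. The most distant pair of values was that of Dhx36, at 1.48-fold. The SD between the clones ran from 0.014 to 0.403 with a median of 0.113 (n = 2).

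**Figure D1:**
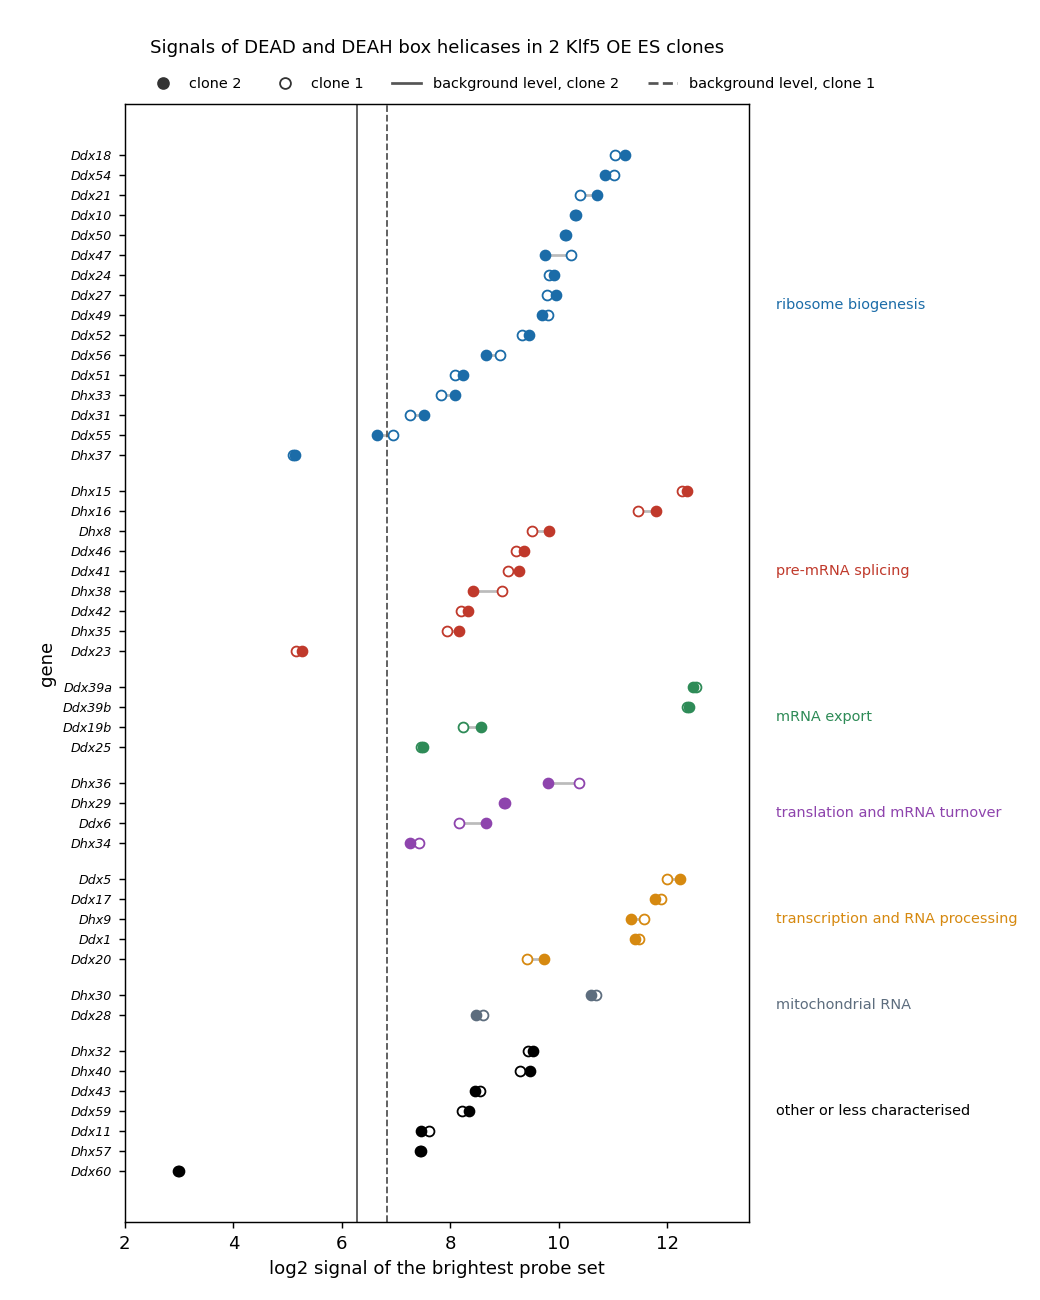
Log2 signal of the brightest probe set (x axis) of each of the 47 helicases (y axis, grouped by role) in clone 2 (filled points) and clone 1 (open points); vertical lines mark the background level of each array. Dhx37, Ddx23 and Ddx60 lie left of both lines, and the other 44 lie right of the line of their clone.

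The differences of the helicases lay around 0 like those of other genes. Of the 44, 26 (59.1%) had the higher signal in clone 2 and 18 in clone 1, while 64.0% of the 9592 genes that passed in at least 1 clone were higher in clone 2. The median difference was 0.065 for the helicases and 0.09 for those genes. Without regard to sign the medians were 0.16 and 0.17. Differences of at most 0.2 were found for 28 helicases (63.6%), beside 58.3% of the genes. The size of a difference depended on the signal: in the dimmest of 4 equal bands of mean signal the median without sign was 0.215 for 4 helicases and 0.21 for all genes, and in the brightest band it was 0.135 for 18 helicases and 0.13 for all genes. Ddx and Dhx genes had the same median difference, 0.065.

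**Figure D2:**
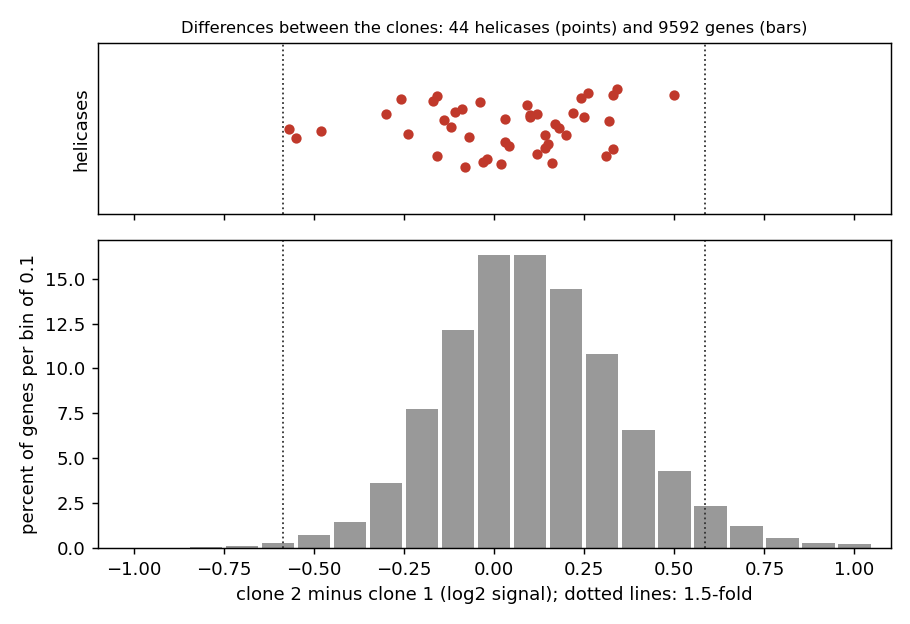
Clone 2 minus clone 1 on the log2 scale (x axis) for each of the 44 helicases above background (upper panel, 1 point a gene, spread vertically for legibility) and for the 9592 genes that passed in at least 1 clone (lower panel, percent of genes per bin of 0.1, axis drawn to just past 1 on each side of 0); dotted lines mark 1.5-fold. All helicase points lie between the lines, from -0.57 to 0.50.

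The sign of a small difference depended on how the arrays were scaled. Quantile normalization moved the median over all genes above background to 0 and that of the helicases to -0.01; centring each array on its median moved them to 0.18 and 0.155. Helicases higher in clone 2 numbered 26 as deposited, 31 after median centring, 19 after quantile and 22 after loess normalization. Over all genes above background the shares were 64.0%, 77.8%, 48.6% and 50.6%. The counts by role and by partner list below are to be read beside these shares. Under all 4 scalings 19 helicases were higher in clone 2 and 12 lower. For the remaining 13 the sign turned or became 0 under at least 1 scaling: Ddx1, Ddx10, Ddx24, Ddx25, Ddx39a, Ddx39b, Ddx42, Ddx43, Ddx50, Dhx29, Dhx30, Dhx32 and Dhx57. Each helicase called higher or lower below by its brightest probe set is among the 31 with a constant sign, unless stated.

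**Figure D3:**
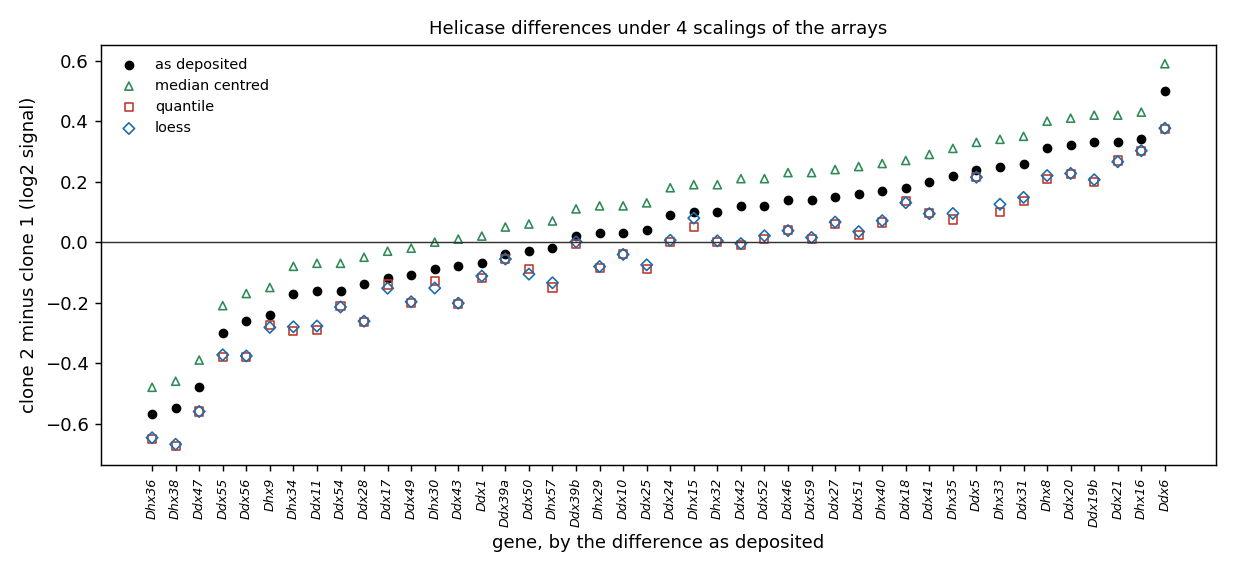
Clone 2 minus clone 1 on the log2 scale (y axis) for each of the 44 helicases above background (x axis, sorted by the deposited difference) as deposited and after 3 normalizations. Genes at the ends, such as Dhx36, Dhx38 and Ddx47 below 0 and Dhx16 and Ddx6 above 0, keep their side under all of them.

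The largest group works on ribosomes. These enzymes act on precursor rRNA, the small nucleolar RNAs paired with it and the assembling subunits. Of 16 measured, 15 were above background in both clones, and 9 of the 15 were higher in clone 2 as deposited (10, 7 and 8 after median, quantile and loess scaling), with a median difference of 0.09 as deposited and 0 after quantile normalization. Ddx18, needed for the large subunit, had the highest mean, 11.13 ± 0.13 (SD, n = 2). Its brightest probe set gave 11.22 in clone 2 and 11.04 in clone 1, another 10.53 and 10.57, and the last, not above background, 5.99 and 6.42. The 2 bright readings of this gene differ in sign. Ddx21, which links rRNA transcription to processing, was 10.71 in clone 2 and 10.38 in clone 1, 1.26-fold higher in clone 2 by this probe set, while its other probe set gave 9.20 and 9.24. Its paralogue and direct neighbour on chromosome 10, Ddx50, was 10.11 and 10.14.

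Ddx47, a helicase of small subunit processing, showed the widest difference in this group. It was 9.74 in clone 2 and 10.22 in clone 1, 1.39-fold lower in clone 2 (difference -0.48). With both directions counted, 9.01% of all genes above background differed by at least as much. The bin of differences centred on -0.5 held 0.740% of these genes, and that centred on 0.5 held 4.28%. The other Ddx47 probe sets were not above background. Also lower in clone 2 by their brightest probe sets were Ddx56 (8.65 and 8.91 in clone 1), Ddx54 (10.85 and 11.01), Ddx49 (9.69 and 9.80) and Ddx55 (6.64 and 6.94), all nucleolar factors. Ddx54 has a second bright probe set with the other sign, 9.58 in clone 2 and 9.44 in clone 1. Ddx55 had the lowest mean of the detected helicases, 6.79 ± 0.21 (SD, n = 2), and its clone 2 signal passed only because the level of that array is lower.

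Higher in clone 2 were Ddx31 (7.52 and 7.26 in clone 1), Dhx33 (8.08 and 7.83), Ddx51 (8.24 and 8.08), Ddx27 (9.94 and 9.79) and Ddx52 (9.44 and 9.32), of which Dhx33 also promotes rRNA transcription. Their differences ran from 0.12 to 0.26. Ddx52 has a second probe set that gave 8.39 and 8.24, the same sign. Ddx10 (10.32 in clone 2 and 10.29 in clone 1) and Ddx24 (9.91 and 9.82) belong to the genes whose sign was not constant. The second Ddx10 probe set, also above background, gave 9.14 and 9.28, the other sign. Dhx37, which frees the U3 small nucleolar RNA from the small subunit precursor, was read by 1 probe set at 5.14 in clone 2 and 5.10 in clone 1, not above background in either.

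Splicing helicases drive the rearrangements of the spliceosome. Of 9 measured, 8 were above background in both clones. Of these, 7 were higher in clone 2 as deposited and after median centring, and 6 after quantile or loess normalization. The shares over all genes above background were 64.0%, 77.8%, 48.6% and 50.6%, and 8 genes are too few to set this role apart. The median difference was 0.17 as deposited and 0.0625 after quantile normalization. Dhx15, which takes apart the spliceosome after splicing, had the highest mean, 12.31 ± 0.07 (SD, n = 2). It gave 12.36 in clone 2 and 12.26 in clone 1, and 11.96 and 11.97 by its other probe set. Dhx16, which activates the spliceosome before the first step, was 11.79 and 11.45, 1.27-fold higher in clone 2. Dhx8, which releases the spliced mRNA, was 9.82 and 9.51, 1.24-fold higher in clone 2. Both rest on a single probe set.

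Ddx41 (9.26 in clone 2 and 9.06 in clone 1) and Dhx35 (8.16 and 7.94), components of late spliceosomes, were also higher in clone 2. Dhx35 had the lowest mean of the splicing helicases above background, 8.05 ± 0.16 (SD, n = 2), and has 1 probe set. Ddx42, which binds a branch site factor, was 8.32 and 8.20. Ddx46, which helps the U2 particle onto the branch site, was 9.35 and 9.21 by the brightest of 5 probe sets above background, of which 3 were higher and 2 lower in clone 2. Dhx38, which remodels the spliceosome before exon ligation, was the member with the lower deposited signal in clone 2 by its brightest probe set, at 8.41 in clone 2 and 8.96 in clone 1 (difference -0.55). The second Dhx38 probe set gave 7.83 and 7.72, the other sign, so no direction is given for the gene. Ddx23, which lets the U6 RNA replace U1 at the start of the intron, was read at 5.26 and 5.16 by 1 probe set and at 4.27 in both clones by another, not above background.

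The 4 helicases of mRNA export were all above background, and 3 were higher in clone 2 as deposited, 4 after median centring, 1 after quantile and 2 after loess normalization. Ddx39a and Ddx39b, close paralogues that load export factors onto spliced mRNA, gave nearly equal signals in both clones. Ddx39a was 12.48 in clone 2 and 12.52 in clone 1 and averaged 12.50 ± 0.03 (SD, n = 2). Its 3 other probe sets above background gave 12.53, 12.52 and 11.37 in clone 2, against 12.40, 12.41 and 11.25 in clone 1, and the last was below background (3.22 and 3.12). Ddx39b was 12.39 and 12.37 by its brightest probe set, 12.22 and 12.26 by the next, 7.39 and 7.24 by another and, below background, 5.09 and 5.52 by the last. Probe sets of these paralogues that end in _x_at may bind both transcripts. Ddx19b, which releases export factors at the cytoplasmic face of the nuclear pore, was 8.56 in clone 2 and 8.23 in clone 1, 1.26-fold higher in clone 2. Its other 2 probe sets, below background, gave 5.82 and 5.46 in clone 2 and 5.34 and 6.05 in clone 1. Ddx25, known as a testicular helicase of male germ cells, was above background in these ES cells, at 7.49 in clone 2 and 7.45 in clone 1. With the level set at the 99th percentile (7.82 in clone 2 and 7.95 in clone 1), Ddx25 passed in neither. Its only probe set averaged 7.47 ± 0.03 (SD, n = 2).

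The helicases of translation and mRNA turnover, all 4 above background, held the largest positive and the largest negative deposited difference of the family by brightest probe set, with 2 of 4 higher in clone 2 as deposited and 1 after quantile or loess normalization. Ddx6, the core helicase of P-bodies that couples translational repression to decapping, had the positive one. It was 8.66 in clone 2 and 8.16 in clone 1, 1.41-fold higher in clone 2 (difference 0.50). Counted in either direction, 7.92% of genes differed by at least as much. The other 2 Ddx6 probe sets above background, 8.05 and 8.03 in clone 2 against 8.0 and 7.86 in clone 1, differed by 0.05 and 0.17. The remaining probe set, below background, gave 3.03 and 3.20. Dhx36, which unwinds G-quadruplexes in mRNA, had the negative one. After quantile and loess normalization the negative difference of Dhx38 was larger, and with the probe sets of each gene averaged Dhx36 was at 0.08. The brightest Dhx36 probe set gave 9.80 in clone 2 and 10.37 in clone 1, 1.48-fold lower in clone 2 (mean 10.09 ± 0.40, SD, n = 2). Counted in either direction, 5.03% of genes differed by as much or more. The bin of 0.1 centred on -0.6 held 0.281% of genes, and that on 0.6 held 2.32%. The other Dhx36 probe sets, 9.24 and 8.53 in clone 2 against 8.92 and 8.04 in clone 1, were higher in clone 2 by 0.32 and 0.49. These 3 readings put Dhx36 on both sides of 0, so no direction is given for the gene.

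Dhx29, which helps ribosomes scan structured mRNA leaders, was 9.01 in clone 2 and 8.98 in clone 1, and 8.06 and 8.37 by its other probe set. Dhx34, a factor of nonsense-mediated decay, was 7.26 and 7.43 by its only probe set and averaged 7.35 ± 0.12 (SD, n = 2).

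All 5 helicases with broad roles in transcription and RNA processing were above background, 2 of them higher in clone 2 as deposited (3 after median centring). Ddx5 and Ddx17 are paralogues that act as transcriptional co-activators and in the processing of primary microRNAs. All 6 probe sets of Ddx5 had the higher deposited signal in clone 2. The brightest read 12.24 in clone 2 and 12.00 in clone 1 (12.12 ± 0.17, SD, n = 2), and the others 12.04, 11.30, 10.89, 7.01 and 6.72 in clone 2 against 11.91, 11.09, 10.42, 6.97 and 6.65 in clone 1. The dimmest of these passed in clone 2 alone, below the level of clone 1. The differences ran from 0.04 to 0.47. Because all 6 probe sets share the scale of their array, they count as readings of the same RNA and not as replicates. Ddx17 had the opposite sign, at 11.77 and 11.89 by its brightest probe set and 11.42 and 11.43 by the next; the last, below background, gave 5.83 and 6.34.

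Dhx9, also called RNA helicase A, was 11.32 in clone 2 and 11.56 in clone 1, and 9.30 and 9.62 by its second probe set, so that both were lower in clone 2. Ddx1, part of the tRNA ligase complex, was 11.40 and 11.47, and 11.26 and 11.29 by the other probe set. Ddx20, also called Gemin3, belongs to the SMN complex that builds spliceosomal particles. It was 9.73 and 9.41 by its only probe set, 1.25-fold higher in clone 2, with the lowest mean of this role, 9.57 ± 0.23 (SD, n = 2).

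The 2 helicases of mitochondrial RNA, both needed for the mitochondrial ribosome, were above background. Dhx30 was 10.59 in clone 2 and 10.68 in clone 1 by the probe set with the highest mean, 10.68 and 10.36 by the next and 9.60 and 9.86 by another, with both signs among them. The last, below background, gave 5.42 and 4.73. Ddx28 was 8.47 and 8.61 by its only probe set and averaged 8.54 ± 0.10 (SD, n = 2).

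Of the 7 remaining members 6 were above background, 3 of them higher in clone 2 as deposited, 5 after median centring and 2 after quantile normalization. Dhx32 was 9.53 in clone 2 and 9.43 in clone 1 and had the highest mean, 9.48 ± 0.07 (SD, n = 2); its second probe set, below background, gave 5.59 and 5.76. Dhx40 was 9.46 and 9.29, and Dhx57 7.44 and 7.46; both are little characterised. Ddx59, linked in humans to ciliary signalling in development, was 8.35 and 8.21. Ddx43, known for its expression in germ cells and tumours, was 8.46 and 8.54. Ddx11, a DNA helicase of sister chromatid cohesion despite its name, was 7.45 and 7.61, and 6.83 and 6.52 by a second probe set that passed in clone 2 alone.

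Ddx60, an interferon-induced antiviral helicase, was far below the background level of either array. Its probe sets gave 2.98 and 2.74 in clone 2 and 3.00 and 2.84 in clone 1, and the brighter averaged 2.99 ± 0.01 (SD, n = 2). Its promoter is shown because it carries the letters of an interferon-stimulated response element (GAAA, any 2 bases, GAAA, searched on both strands) in 2 copies, 44 and 10 bases upstream of the start. The 250 bases before the start, RefSeq build GRCm38.p6, chr8:61927837-61928086, plus strand, read as follows, with the matches in capitals.
Ddx60: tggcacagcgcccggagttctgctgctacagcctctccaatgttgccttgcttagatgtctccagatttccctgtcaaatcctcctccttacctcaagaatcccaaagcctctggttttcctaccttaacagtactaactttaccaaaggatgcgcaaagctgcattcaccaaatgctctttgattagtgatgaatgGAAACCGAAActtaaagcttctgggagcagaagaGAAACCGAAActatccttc
Among the 42 helicases with a promoter in the RefSeq table, Ddx49 also held a match, 4.76% of them in all. The share was 3.63% of 14452 measured genes with a promoter, and 3.18% of the 6949 of these above background in both clones. In its window of 300 bases Ddx60 had 6 CpG dinucleotides, a ratio of observed to expected CpG of 0.390, while the median over the 53 windows of the helicases was 0.855.

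The probe sets of a gene were compared as repeated readings of the same RNA. Of the 103 helicase probe sets, 74 were above background in both clones, 5 in clone 2 alone, 0 in clone 1 alone and 24 in neither. Of the 5, 3 had a clone 2 signal no higher than the level of clone 1. No probe set above background differed 1.5-fold. In 18 helicases at least 2 probe sets passed in both clones, and in 6 of these (33.3%) all of them had the same sign: Ddx1, Ddx5, Ddx6, Ddx17, Ddx52 and Dhx9. Among all genes with at least 2 such probe sets the share was 50.1% of 3177. Counted as pairs of probe sets within a gene, 27 of 49 helicase pairs (55.1%) agreed in sign, beside 58.6% of 7140 pairs over all genes. These signs are those of the deposited values. There was no such comparison for the 16 helicases with a single probe set and for 13 of the 31 with several, of which fewer than 2 passed in both clones.

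**Figure D4:**
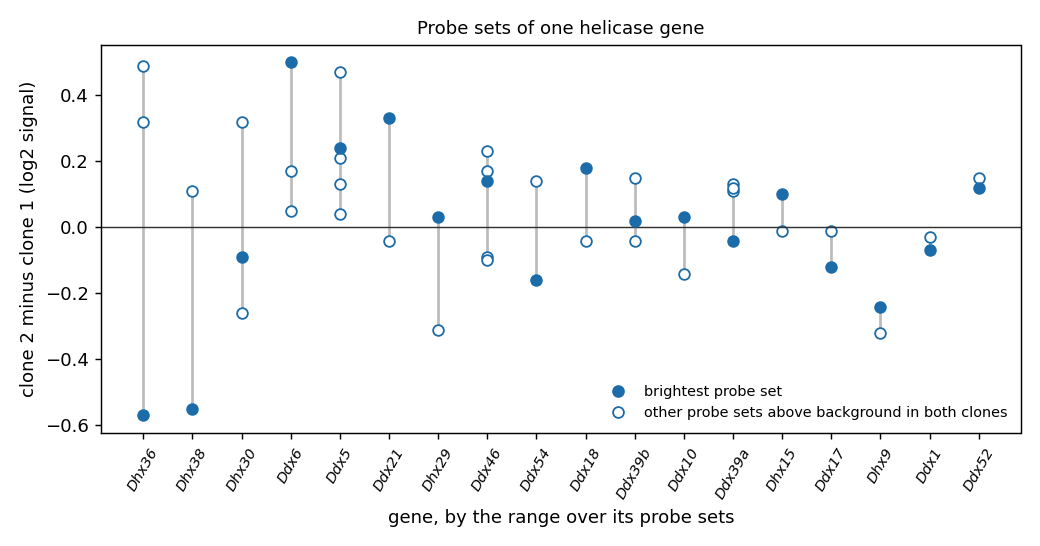
Clone 2 minus clone 1 on the log2 scale (y axis) for each probe set above background in both clones of the 18 helicases with at least 2 of them (x axis, sorted by the range over probe sets); the filled point is the brightest. Dhx36 spans -0.57 to 0.49, while all Ddx5 and Ddx6 points lie above 0.

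Genes whose products work beside the helicases, and RNA helicases with other names, were read in 6 lists. Of 87 measured, 79 (90.8%) passed in both clones, beside 46.3% of all genes, and 83 passed in at least 1. Of the 83, 50 (60.2%) were higher in clone 2, beside 64.0% over all genes, and the median difference was 0.07. By the deposited values 3 of them (3.61%) differed 1.5-fold, beside 4.38% over all genes, and 2 of the 3 were above background in clone 2 alone. Among 16 RNA helicases with other names, 10 passed in both clones; Eif4a1, the helicase of translation initiation, was 13.34 in clone 2 and 13.20 in clone 1. Skiv2l, of the cytoplasmic exosome, was 7.18 in clone 2, against 6.12 in clone 1, which was not above background; counted from the background level it was at least 1.27-fold higher in clone 2. Ythdc2, a meiotic helicase that binds methylated RNA, was 7.26 in clone 2, against 6.21, not above background, in clone 1, a bound of at least 1.35-fold. Under the other 3 scalings both had the same sign, with bounds of 1.19-fold to 1.43-fold.

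All 24 nucleolar assembly genes passed in both, 14 of them higher in clone 2 (18, 8 and 10 after median, quantile and loess scaling), with a median of 0.045 as deposited and -0.03 after quantile normalization. Npm1, an abundant nucleolar chaperone, was 13.64 in clone 2 and 13.80 in clone 1. Dkc1, the pseudouridine synthase of box H/ACA particles, was 12.11 and 11.50 by the brightest of its 3 probe sets. By this probe set it was 1.53-fold higher in clone 2 as deposited, 1.62-fold after median centring and 1.49-fold after quantile or loess normalization. Values of its other probe sets are not given here. Of 18 spliceosome core and cofactor genes 17 passed in both, with a median of 0.06 (-0.05 after quantile normalization); Prpf19 was 12.32 and 12.41. All 12 export genes passed, with a median of -0.055 (0.035 after median centring, -0.1275 after quantile and -0.134 after loess normalization). Sarnp was 11.78 and 11.67. Of 11 P-body and decay genes 10 passed, with a median of 0.11 (0.06 after quantile normalization), among them Lsm14a, a partner of Ddx6, at 11.11 in clone 2 with a difference of 0.11. All 6 measured SMN complex genes passed, with a median of 0.145 (0.0225 after quantile normalization), and Strap was 11.31 and 10.79.

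**Figure D5:**
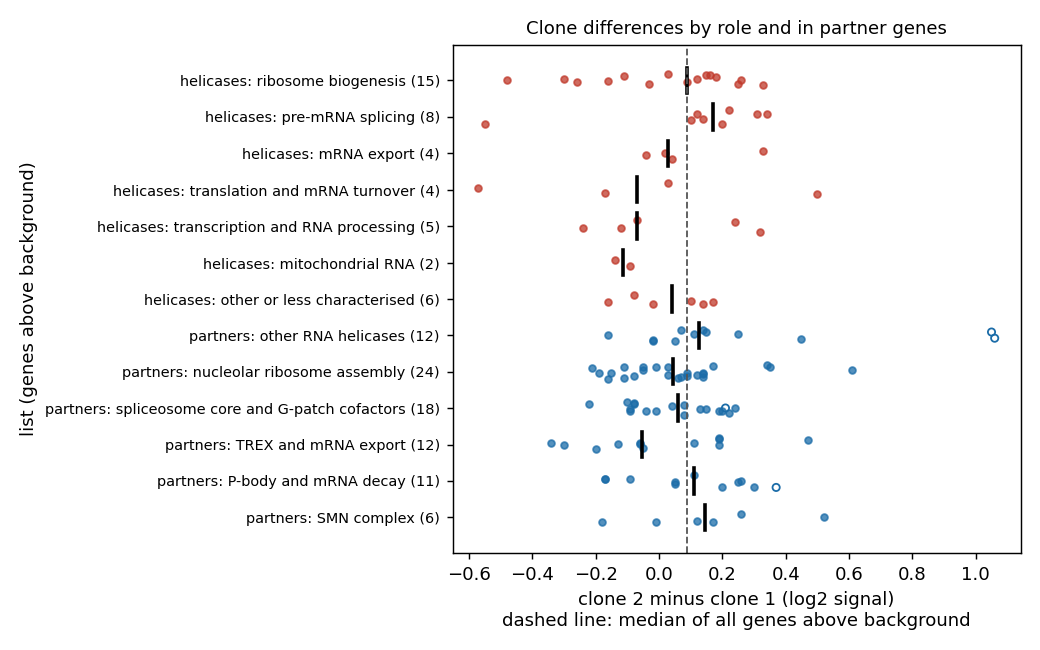
Clone 2 minus clone 1 on the log2 scale (x axis) for the genes above background of each helicase role (red) and each partner list (blue), 1 point a gene (open where 1 clone was not above background), with the median of each list as a black bar and the median of all genes above background, 0.09, as a dashed line. Points of all lists straddle 0 except those of the 2 mitochondrial helicases. The open points of Skiv2l and Ythdc2, past 1, rest on clone 1 signals that were not above background, so their place on the axis is not a measured size.

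In the genome the 47 members lie on 14 chromosomes, with 7 on chromosome 11 and 6 on chromosome 8. Ddx21 and Ddx50 are direct neighbours, as are Ddx19b and Ddx19a. Ddx41 and Ddx46 on chromosome 13 have 4 protein-coding genes between them, and both were higher in clone 2 by their brightest probe sets (0.20 and 0.14). Ddx55 and Dhx37 on chromosome 5 have 11 between them, with differences of -0.30 and 0.04, the signals of Dhx37 not being above background. Ddx42 and Ddx5 on chromosome 11 have 14 genes between them (0.12 and 0.24; the sign of Ddx42 was not constant).

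Promoters were compared for what the symbols did not select, in 42 members with a RefSeq promoter (250 bases before to 50 after the start). A match is a description of the letters and not of binding. Shares are of genes, and a gene with several promoter windows counted as a match if any of them matched. The ETS-type motif CCGGAAG was found in 19 of the 42 (45.2%). The shares beside it were 23.1% of the 6949 genes with a promoter and a signal above background in both clones, and 15.0% of all 14452 with a promoter. The NRF1-type motif (GCGCA, any base, GCGC) was found in 8 (19.0%), beside 13.6% and 8.61%. The cAMP response element TGACGTCA was found in 4 (9.52%), beside 3.91% and 2.92%. The KLF-type motif GGGNGTGG was found in 8 (19.0%), beside 26.8% and 24.6%, and the GC box GGGCGG in 29 (69.0%), beside 72.4% and 57.3%. CCAAT was found in 22 (52.4%), beside 44.2% and 42.0%, and the E-box CACGTG in 6 (14.3%), beside 12.8% and 10.2%. TATAAA was found in 5 (11.9%), beside 7.60% and 11.5%, and AAGATGGC, a YY1-type motif, in 1 (2.38%), beside 6.26% and 4.07%. The palindrome of TCTCG and its reverse complement was found in 0, beside 0.865% of all 14452. All motifs were searched on both strands, the letters of none lie within those of another, and they were chosen with the signals known.

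The ETS-type match is shown because its share among helicases stood farthest from that over all genes in percentage points; as a ratio of shares the cAMP response element, in 4 genes, stood farther. It lay wholly upstream of the start, with 11 bases on each side, in 13 of the 19 genes. Each stretch is read on the strand that shows CCGGAAG (capitals), build GRCm38.p6. The matches end 14 to 223 bases before the start.
Ddx54: ggctcttagacCCGGAAGagggcggggcc
Ddx39b: cgcgcaaggagCCGGAAGcaggctttcgc
Ddx1: aagagctcgagCCGGAAGcgcgcgccgcc
Ddx49: gcattcacgcgCCGGAAGcactcatttct
Dhx34: accatttaggaCCGGAAGttgaggcgtcc
Dhx36: cgcgctgggcgCCGGAAGcaaagcagagg
Dhx35: ggggggtgttgCCGGAAGgcgtggcttct
Dhx30: cggccgctccgCCGGAAGtcccgcctgtg
Dhx37: gcatgcgcaacCCGGAAGtctcctagcca
Dhx9: aggtttggcgcCCGGAAGtggttcaagcc
Ddx5: ccaccaactcaCCGGAAGcgcggctccaa
Ddx10: ttgcgctgtttCCGGAAGccccaagcact
Ddx17: tgcccagagacCCGGAAGtctgactaagg
Genes with a match include both signs of difference, Dhx35 at 0.22 and Dhx9 at -0.24, and Dhx37, which was not above background.

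The promoters of Dhx37 and Dhx36 are given in full for comparison with that of Ddx60. Dhx37 (chr5:125434049-125434298, minus strand), like Ddx60, was not above the background level used here. With the level from olfactory and vomeronasal receptors (4.87 in clone 2 and 4.98 in clone 1), Dhx37 passed in both clones and Ddx60 in neither. The Dhx37 promoter holds an NRF1-type and an ETS-type match 3 bases apart, in capitals. Its window has a ratio of observed to expected CpG of 0.894. The Dhx37 window also holds the GC box, which is not in capitals.
Dhx37: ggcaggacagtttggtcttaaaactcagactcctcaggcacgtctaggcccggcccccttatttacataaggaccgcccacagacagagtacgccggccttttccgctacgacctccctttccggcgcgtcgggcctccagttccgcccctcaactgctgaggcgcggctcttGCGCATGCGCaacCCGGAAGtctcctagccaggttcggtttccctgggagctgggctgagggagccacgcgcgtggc
Dhx36 (chr3:62506989-62507238, minus strand), whose probe sets spanned -0.57 to 0.49, holds 2 ETS-type matches on opposite strands and has a ratio of 1.09. Only the ETS-type matches are in capitals. The Dhx36 window also holds the cAMP response element and the GC box.
Dhx36: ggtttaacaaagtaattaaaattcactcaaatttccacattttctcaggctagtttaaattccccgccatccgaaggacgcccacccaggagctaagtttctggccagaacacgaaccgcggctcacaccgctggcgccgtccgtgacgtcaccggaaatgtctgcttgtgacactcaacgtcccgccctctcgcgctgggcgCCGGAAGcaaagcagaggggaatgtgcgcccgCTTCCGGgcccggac
The median ratio of observed to expected CpG was 0.855 over helicase promoter windows, 0.790 over those of genes above background in both clones and 0.650 over all measured genes.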

How the data were processed

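Arrays of 2 Klf5 OE ES clones were compared, 1 array each. The deposited values are log2 signals, 1 for each probe set on each array, and the submitters' processing notes name Transcriptome Analysis Console; the sources used here do not give the background correction, summarisation, normalization or build. Base 2 was taken from the range, 2.21 to 14.38, and all folds rest on it. The values hold no detection calls, and 2 arrays limit the precision.

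Of 45037 probe sets, 34945 had 1 gene symbol, 932 several and 9160 none; only the first were used. Entrez identifiers of 34741 matched the RefSeq table of GRCm38.p6, which changed 0 symbols. With no residual degrees of freedom, no p-value was computed; rules of size at 2-fold and 1.5-fold, with the higher clone above background, were used instead. A dimmer clone under background was raised to its level for "at least" folds. Checked on simulated differences over 9592 genes, the 2-fold rule found 95.5% of 200 genes planted at 1.5 (log2). The simulated noise had the SD of the observed differences, 0.26. With genes planted well past the rule, high recovery followed from these settings. Differences near 2-fold or smaller were not simulated, so this percentage does not bear on the helicases. Members, roles, partner lists and background genes were chosen with earlier results of these data known; all members are named, and of each partner list the brightest gene and those past 1.5-fold. Where signs differ, the probe sets above background in both clones are given as well, chosen after their values were seen. For Ddx46 only the brightest is given by value, with a count of signs over its probe sets. Alternatives were 3 normalizations, other background levels, no filter, each clone alone, a mean over probe sets, a threshold of 1.5-fold and the omission of probe sets ending in _x_at or _s_at. Python 3.11.15 with numpy 2.4.6 and pandas 2.3.3 was used.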

Additional observations from a re-analysis of the deposited data

How the results depend on the processing

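Under the alternatives run, the helicases above background in both clones numbered 36 (99th percentile), 38 (probe sets averaged), 43 of 46 (without probe sets ending in _x_at or _s_at), 44 (90th percentile) and 46 (level from olfactory and vomeronasal receptors). At the level from olfactory and vomeronasal receptors only Ddx60 did not pass. The helicases above background numbered 44 with either clone left out. The share over all genes then ran from 32.7% to 66.5%. No helicase differed 2-fold under any of them. The median difference ran from -0.01 (quantile) to 0.155 (median centring), and the number higher in clone 2 from 19 to 31. Without probe sets ending in _x_at or _s_at, 4 helicases had the other sign: Ddx39b (-0.04), Ddx54 (0.14), Dhx30 (0.32) and Dhx38 (0.11). After quantile and loess normalization Dhx36 and Dhx38 passed 1.5-fold, and after median centring Ddx6 did. With all probe sets of each gene averaged, 11 helicases had the other sign, and with the average over those above background in both clones (chosen after seeing the data), 4. In this last setting the differences ran from -0.48 to 0.34. No paired analysis was possible because both arrays belong to 1 group.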
